A study of Mus musculus with 7 samples.

Results

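Genes of the Hedgehog pathway were followed across the epithelial and non-epithelial parts of the embryonic mouse kidney and a collecting duct cell line. The 9 genes are the ligand gene Shh, the receptor genes Ptch1 and Smo, the co-receptor genes Boc and Gas1, the ligand-binding antagonist gene Hhip, and the transcription factor genes Gli1, Gli2 and Gli3. The members are the 24 probe sets whose array annotation lists exactly 1 of these 9 genes, out of 45037 probe sets and 18193 named genes on the array. A probe set is the group of short oligonucleotides that reports a transcript.

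Sonic hedgehog is a secreted signal that acts on neighbouring cells. Without ligand, the receptor Patched1 keeps Smoothened inactive, and Gli3 is mainly processed to a repressor. When ligand binds, Smoothened becomes active at the primary cilium and Gli proteins switch on target genes, among them Gli1, Ptch1 and Hhip, which are therefore used as readouts of the pathway. In the developing urinary tract the ureteric epithelium makes Sonic hedgehog, and the mesenchyme around the ureter responds to it.

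The labels give no genotype or strain. The 3 tissue groups were microdissected from mouse kidneys at embryonic stage E12.5, namely the metanephric mesenchyme, the ureteric bud stalk and the ureteric bud tip, each with 2 arrays labelled as biological replicates. The fourth group is 1 array of a freshly isolated subclone of mIMCD-3 grown to confluency. This immortalised mouse line derives from collecting duct cells of the inner medulla. It is therefore 1 clone on 1 array, and it was added to tissue arrays that had been published earlier, so cell line and hybridisation cannot be told apart.

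The mesenchyme and tip arrays matched their labels by marker genes, but none of the genes given here marks the stalk alone. A list of 6 stalk and urothelium markers hardly set stalk apart from tip. Its summed linear intensity was 970 and 991 in stalk, 899 and 837 in tip, and 276 and 281 in mesenchyme. Cdh1, the epithelial cadherin gene, lay at log2 intensities of 3.68 and 3.998 in mesenchyme and at 10.45 to 11.09 in stalk, tip and mIMCD-3. Ret, the tip receptor gene, was highest in tip (10.70 and 11.07) and lay at 4.11 in mIMCD-3. Six2, a gene of nephron progenitors in the mesenchyme, was highest in mesenchyme (9.84 and 9.88). Foxd1, a gene of the renal stroma, lay at 11.07 and 11.12 in mesenchyme, 9.88 and 9.94 in stalk, 6.14 and 6.63 in tip and 9.56 in mIMCD-3. The stalk arrays thus carried a high level of a stromal marker beside their epithelial markers. Foxd1 was close to that level in the collecting duct line too, so this gene alone does not show stromal cells in the stalk. The list of 9 renal stroma markers differed from Foxd1 in this. Its summed linear intensity was 949 in mIMCD-3, 16566 and 15973 in stalk, and 16084 and 15243 in mesenchyme. The share of stromal cells was not tested. Medians of the arrays lay between 5.39 and 5.62 log2 units.

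All values below are log2 intensities from robust multichip analysis, in which 1 unit is a doubling of signal. Differences are given with the standard error (SE) of a linear model (limma) over the 6 tissue arrays, with 2 arrays against 2, and a probe set was called when its Benjamini-Hochberg adjusted p over all probe sets was under 0.05. Levels are compared between arrays. Percentiles and the word dim place a probe set within its own array and do not rank the expression of genes. Unless another probe set is named, a gene is described by its brightest one. In tissue, fewer cells of a type and less RNA per cell cannot be told apart. The data plotted by array give the overview.

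**Figure D1:**
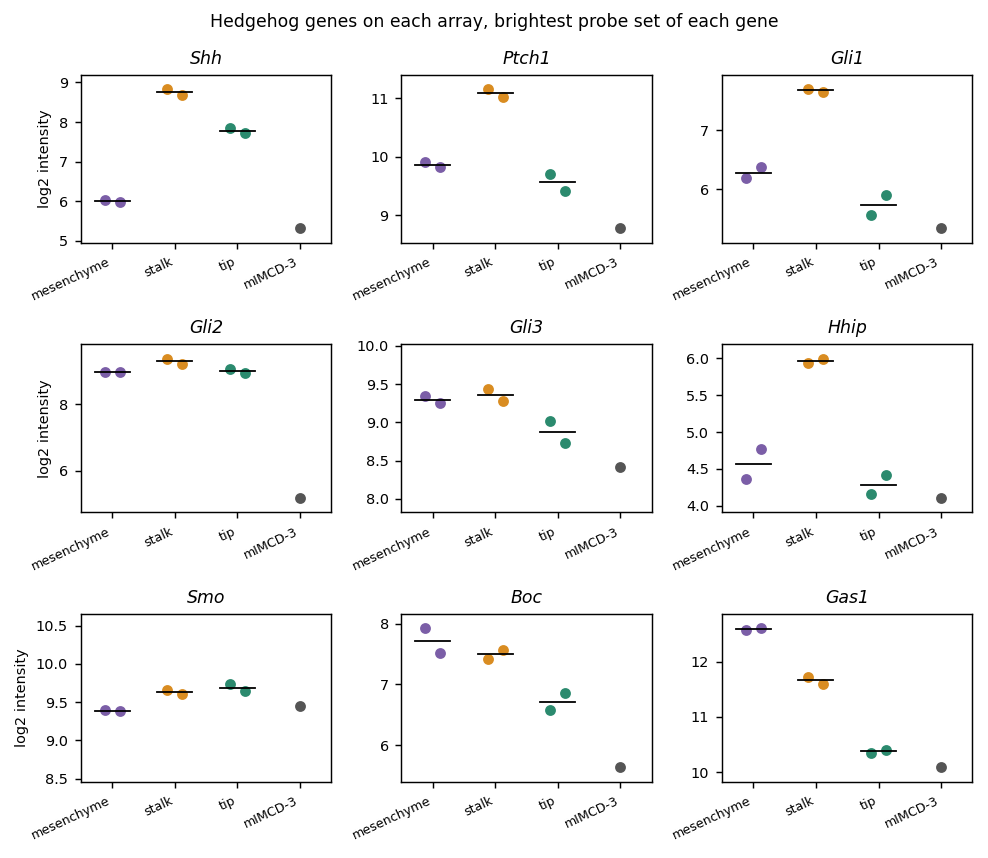
Log2 intensity (vertical axis, own range in each panel) of the brightest probe set of each of the 9 Hedgehog genes on the 7 arrays, by group (horizontal axis); points are arrays and horizontal lines are means of 2 arrays. Ptch1, Gli1 and Hhip stand highest in both stalk arrays, Gas1 steps down from mesenchyme to stalk to tip, and Gli2 drops to 5.19 in mIMCD-3.

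Shh, the ligand gene, was highest in the stalk, intermediate in the tip and lowest in the mesenchyme. It measured 8.83 and 8.69 in the stalk arrays, 7.85 and 7.72 in the tip arrays, 6.03 and 5.99 in the mesenchyme arrays and 5.32 in mIMCD-3. The groups did not overlap, and the order stalk, tip, mesenchyme held for every pair of tissue arrays. Stalk exceeded mesenchyme by 2.75 ± 0.13 (SE; adjusted p = 3.62e-05), a 6.72-fold difference in signal. Tip exceeded mesenchyme by 1.77 ± 0.13 (adjusted p = 9.55e-05). Tip minus stalk was -0.97 ± 0.13 (adjusted p = 0.00411), a call that was lost without stalk replicate 1 (adjusted p = 0.0656). The second Shh probe set was dim, below the lower quartile of its array on 4 of 7 arrays, and it was not called (differences of 0.62 for stalk and 0.56 for tip against mesenchyme). With the replicate number as a block, both of these were called (adjusted p = 0.0325 and 0.0243).

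Ptch1 encodes the ligand-binding receptor and is itself switched on by the pathway. It measured 11.16 and 11.02 in stalk, 9.91 and 9.82 in mesenchyme, 9.70 and 9.42 in tip and 8.78 in mIMCD-3. Both stalk arrays lay above all others, while the mesenchyme and tip arrays lay close together. The stalk was 1.22 ± 0.15 higher than the mesenchyme (adjusted p = 0.00359), and the tip was 1.53 lower than the stalk (tip minus stalk -1.53 ± 0.15; adjusted p = 0.000761). Tip minus mesenchyme was -0.30, with a 95% interval from -0.65 to 0.04 (adjusted p = 0.339). The 2 other Ptch1 probe sets were not called in any of the 3 comparisons. The brighter of them had differences of 0.56 for stalk minus mesenchyme and -0.62 for tip minus stalk. With the replicate block that last difference was called (adjusted p = 0.0208).

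Gli1, a transcriptional activator whose own transcription depends on the pathway, followed the same order. Its single probe set measured 7.70 and 7.66 in stalk, 6.19 and 6.37 in mesenchyme, 5.55 and 5.89 in tip and 5.33 in mIMCD-3. No group of tissue arrays overlapped another. The stalk was higher than the mesenchyme by 1.40 ± 0.16 (adjusted p = 0.00252), and tip minus stalk was -1.96 ± 0.16 (adjusted p = 0.000309), a 3.89-fold lower signal. Tip minus mesenchyme was -0.56 ± 0.16 and was not called (adjusted p = 0.0705). It was called with the replicate block (adjusted p = 0.0179), with 1 probe set per gene (adjusted p = 0.0495) and without tip replicate 2 (adjusted p = 0.0259).

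Hhip encodes a membrane protein that binds and sequesters Hedgehog ligands, and it too is a pathway target. Its brightest probe set measured 5.94 and 5.996 in stalk, 4.36 and 4.78 in mesenchyme, 4.16 and 4.42 in tip and 4.11 in mIMCD-3. The stalk arrays stood above the rest, and mesenchyme and tip overlapped. Stalk exceeded mesenchyme by 1.40 ± 0.18 (adjusted p = 0.00428), and tip minus stalk was -1.68 ± 0.18 (adjusted p = 0.0011). Of the 3 other Hhip probe sets, 2 were called in the same directions, with 1.052 and 1.045 for stalk minus mesenchyme and -1.32 and -1.31 for tip minus stalk. Their stalk calls were lost with log2 of the value plus 32 (adjusted p = 0.0535 and 0.0673) and without certain single arrays (replicate 2 of mesenchyme or stalk for the first, replicate 1 of either for the second; adjusted p from 0.0577 to 0.108). Both were below the lower quartile on 5 of 7 arrays, so their differences start from signal near the floor of the array and may be compressed.

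Gas1 encodes a membrane-anchored co-receptor that binds Sonic hedgehog and is itself lowered by the pathway in other embryonic tissues. It measured 12.58 and 12.61 in mesenchyme, 11.73 and 11.61 in stalk, 10.34 and 10.41 in tip and 10.09 in mIMCD-3. The groups did not overlap. Its highest arrays were therefore those of the mesenchyme, not of the stalk. Stalk minus mesenchyme was -0.93 ± 0.13 (adjusted p = 0.00697), tip minus mesenchyme -2.22 ± 0.13 (adjusted p = 2.65e-05) and tip minus stalk -1.29 ± 0.13 (adjusted p = 0.000845). The stalk call was lost when any 1 of the 4 arrays of that comparison was left out (adjusted p from 0.0524 to 0.108). A second Gas1 probe set was called lower in each comparison (-1.21, -2.60 and -1.39), the first of these lost without either stalk array (adjusted p = 0.0501 and 0.0543), whereas the third, at 5.96 to 6.70 in all tissue arrays, was not called in any.

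Promoter sequences from RefSeq (build GRCm38.p6) were read for 6 of the 9 genes, namely Ptch1, Gli2, Gli3, Hhip, Smo and Gas1. Hhip and Gas1 are shown because both products bind the ligand at the cell surface and their levels had different orders in the tissues, stalk first for Hhip and mesenchyme first for Gas1. The stretches end at the start of the annotated gene and are given 5′ to 3′ on the minus strand, with CpG dinucleotides in capitals. The Hhip stretch covers chr8:80058061-80058258 and the Gas1 stretch chr13:60177536-60177785.
Hhip: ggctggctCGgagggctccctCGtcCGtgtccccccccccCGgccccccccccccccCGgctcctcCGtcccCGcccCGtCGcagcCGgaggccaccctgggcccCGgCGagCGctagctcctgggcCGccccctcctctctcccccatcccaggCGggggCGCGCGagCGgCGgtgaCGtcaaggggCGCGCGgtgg
Gas1: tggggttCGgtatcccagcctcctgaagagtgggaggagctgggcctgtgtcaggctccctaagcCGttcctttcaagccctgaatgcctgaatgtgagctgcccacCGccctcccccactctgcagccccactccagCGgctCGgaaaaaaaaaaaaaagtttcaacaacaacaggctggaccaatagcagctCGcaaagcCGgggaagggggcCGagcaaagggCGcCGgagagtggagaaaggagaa
The Hhip stretch holds 24 CpG in 198 bases and the Gas1 stretch 10 CpG in 250 bases. In the 250 bases before their start sites, the 6 genes held 10 (Gas1) to 41 (Ptch1) CpG, beside a median of 6 over 32817 such windows. The start sites used for Ptch1, Gli2 and Hhip lie inside the annotated span of the gene, so their windows may include transcribed sequence. The Gli consensus GACCACCCA, searched on both strands, was found in 0 of the 6 windows, exactly or with 1 mismatch, where 0.225% of all windows held it exactly and 5.80% with at most 1 mismatch. This says only that these letters are not in these windows.

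Boc, a co-receptor gene of the immunoglobulin superfamily, was lower in the tip. It measured 7.92 and 7.51 in mesenchyme, 7.42 and 7.57 in stalk, 6.57 and 6.86 in tip and 5.64 in mIMCD-3. Mesenchyme and stalk overlapped, and both tip arrays lay under them. Tip minus mesenchyme was -1.003 ± 0.18 (adjusted p = 0.00974), a call lost without mesenchyme replicate 1 (adjusted p = 0.0686). Tip minus stalk was -0.78 ± 0.18 (adjusted p = 0.0462), a call lost without any 1 of the stalk or tip arrays (adjusted p from 0.0507 to 0.287) and with log2 of the value plus 32 (-0.63, adjusted p = 0.0749). Stalk minus mesenchyme was -0.22, with a 95% interval from -0.64 to 0.20. A second probe set was also lower in tip, by -1.97 against mesenchyme and -1.51 against stalk (the latter lost without stalk replicate 1, adjusted p = 0.0808), and the third was below the lower quartile on all 7 arrays.

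Smo, the gene of the signal-transducing receptor, was nearly level in the tissues. It measured 9.39 and 9.38 in mesenchyme, 9.66 and 9.60 in stalk, 9.73 and 9.64 in tip and 9.45 in mIMCD-3. The stalk and tip arrays lay slightly above the mesenchyme arrays, and neither difference was called. The 95% intervals were -0.05 to 0.54 for stalk minus mesenchyme, 0.01 to 0.59 for tip minus mesenchyme and -0.24 to 0.35 for tip minus stalk. Another Smo probe set had a difference of 0.44 for tip minus mesenchyme (adjusted p = 0.1), which was called with the replicate block (adjusted p = 0.0253), with a robust variance model (0.0244) and with log2 of the value plus 32 (0.0419). The brightest was called there with log2 of the value plus 32 (adjusted p = 0.0381). The third Smo probe set was below the lower quartile on all 7 arrays and was not called.

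Gli2, the main activator of the family, measured 8.96 and 8.97 in mesenchyme, 9.37 and 9.20 in stalk and 9.05 and 8.95 in tip. The mesenchyme and tip arrays overlapped, and both stalk arrays lay slightly above. None of its 2 probe sets was called in the tissue comparisons, and for the brighter one the 95% interval was 0.01 to 0.62 for stalk minus mesenchyme and -0.59 to 0.02 for tip minus stalk. Gli3, the gene of the main repressor form, measured 9.34 and 9.25 in mesenchyme, 9.43 and 9.28 in stalk and 9.02 and 8.73 in tip. Both tip arrays lay under the others. Tip minus stalk was -0.48 ± 0.15 (adjusted p = 0.134) and tip minus mesenchyme -0.42 ± 0.15 (adjusted p = 0.157). Both were called with the replicate block, at an adjusted p of 0.0273 and 0.0379. A robust variance model with a trend called them too (adjusted p = 0.0290 and 0.0476). The first was also called without tip replicate 1 (adjusted p = 0.0487). A second Gli3 probe set measured 8.74 and 8.77 in stalk and 8.33 and 8.15 in tip, a difference of -0.51 (adjusted p = 0.0681). It was called under 5 alternatives, including the replicate block (adjusted p = 0.0215) and the robust variance model (adjusted p = 0.0282). The third Gli3 probe set was not called, at 0.03 for tip minus mesenchyme and -0.20 for tip minus stalk.

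**Figure D2:**
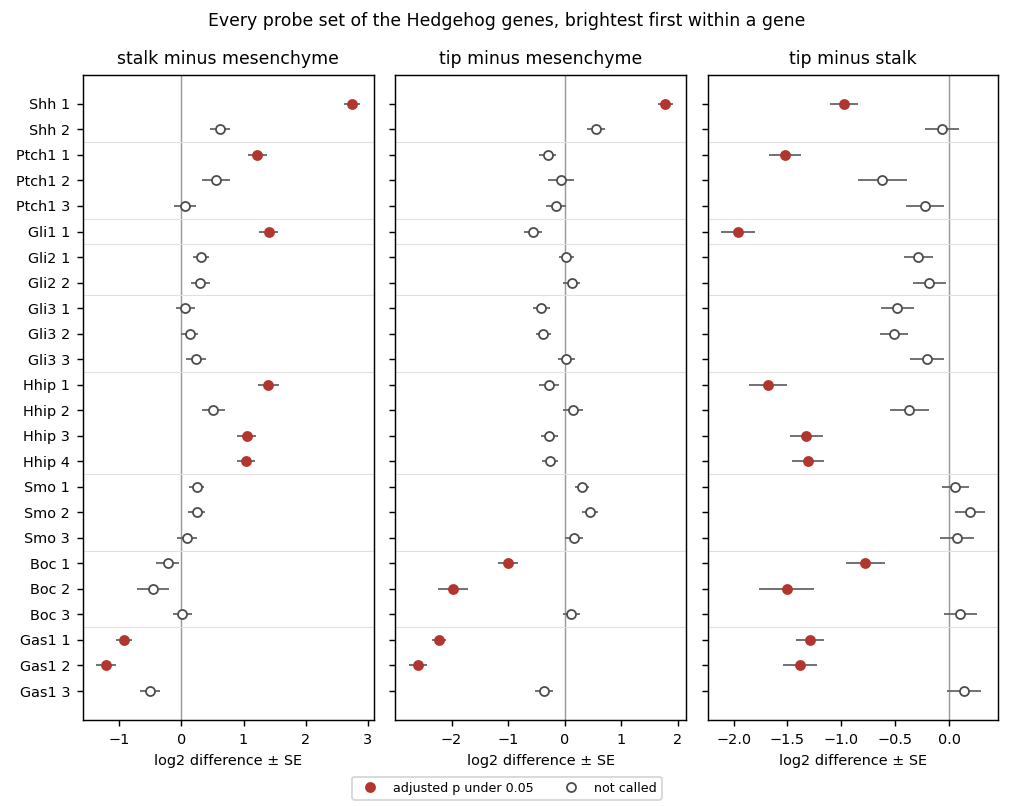
Log2 difference (horizontal axis) with its SE for each of the 24 probe sets (vertical axis, numbered from the brightest within a gene) in the 3 tissue comparisons; filled points had an adjusted p under 0.05. In tip minus stalk, the filled points belong to Shh, Ptch1, Gli1, Hhip, Boc and Gas1 and all lie below 0.

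Counted over probe sets, the members had most calls between tip and stalk. In tip against stalk 10 of 24 member probe sets were lower, where 4.56% of all probe sets were lower. None was higher (0 also at an unadjusted p under 0.05 and with the replicate block), where 1.71% of all were. In stalk against mesenchyme 6 were higher and 2 lower, against 2.5% and 0.653% of all probe sets. In tip against mesenchyme 1 was higher and 4 lower, against 4.78% and 5.52%. With the replicate block the tip counts against mesenchyme were 3 higher and 6 lower. The median difference of the 24 was 0.24 for stalk minus mesenchyme, -0.21 for tip minus mesenchyme and -0.50 for tip minus stalk, beside -0.04, 0.02 and 0.07 over all probe sets. These comparisons share their arrays, so their counts are not independent. By gene, through the brightest probe set, 4 of the 9 members were higher and 1 lower in stalk against mesenchyme, where 3.74% and 0.962% of all genes were. The same counts were 1 and 2 in tip against mesenchyme (6.56% and 7.56% of all genes) and 0 and 6 in tip against stalk (2.33% and 6.31%).

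Markers of mesenchymal cells were lower in tip than in stalk, as 6 of the 9 Hedgehog genes were, and were mixed between stalk and mesenchyme. The 9 markers of ureteric mesenchyme and smooth muscle had a summed linear intensity of 3560 to 3944 in stalk, 2424 to 2703 in mesenchyme and 545 to 559 in tip, and 6 of 9 were lower in tip than in stalk. Tbx18, a transcription factor gene of the ureteric mesenchyme, measured 11.16 and 10.93 in stalk, 9.77 and 9.51 in mesenchyme, and 6.43 and 5.48 in tip. Tshz3, a zinc finger gene needed for ureteric smooth muscle, measured 9.43 and 9.30 in stalk, 7.94 and 7.43 in mesenchyme and 5.49 and 5.44 in tip. Both genes were thus highest in stalk, like Ptch1, Gli1 and Hhip, but the list as a whole was not. In stalk against mesenchyme 2 of the 9 were higher (Tbx18 and Tshz3), 2 were lower (Des, the gene of the muscle filament protein desmin, at -1.09, and Tshz2 at -0.64) and 5 were not called, with a median of -0.31. Without stalk replicate 1 Des was no longer called, at a difference of -1.06. The Tbx18 and Tshz2 calls were lost without any 1 of the 4 arrays compared (adjusted p from 0.116 to 0.384), and that of Tbx18 also with log2 of the value plus 32 (adjusted p = 0.0521) and that of Tshz2 after median centring (adjusted p = 0.0658). The 9 renal stroma markers summed to 15973 to 16566 in stalk, 15243 to 16084 in mesenchyme and 1877 to 2350 in tip, and all 9 were lower in tip than in stalk, while 1 was higher and 1 lower in stalk than in mesenchyme. The 8 nephron progenitor markers summed to 7576 to 8273 in mesenchyme, 1953 to 2061 in stalk and 806 to 987 in tip, and 6 of 8 were lower in tip than in stalk. The 10 ureteric epithelium markers summed to 19589 to 19755 in stalk, 32319 to 34719 in tip and 559 to 628 in mesenchyme. The 8 endothelium markers summed to 3113 to 3439 in mesenchyme, 1979 to 2059 in stalk and 775 to 804 in tip, and 7 of 8 were lower in tip than in stalk. In tip against stalk, all 6 bud tip markers were higher, and 3 of 5 erythroid, 3 of 6 myeloid, 1 of 4 neural and 1 of 6 stalk and urothelium markers were lower, the last being Foxa1 (-2.17). On the tip arrays, 0 of the ureteric mesenchyme, stroma and endothelium markers were below the lower quartile. In the cell line mIMCD-3 these counts were 1 of 9, 2 of 9 and 0 of 8, so this measure does not show that such cells were present. The part of these cell types in the Hedgehog gene differences was not tested.

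**Figure D3:**
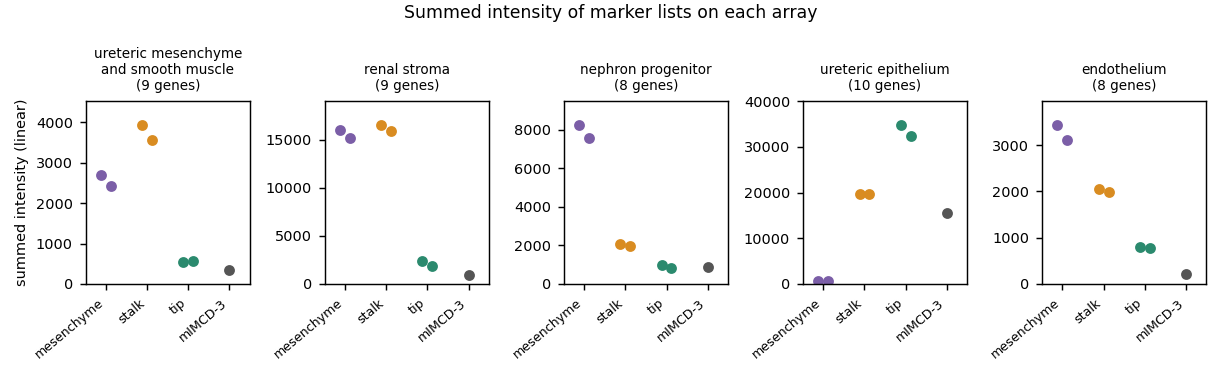
Summed linear intensity (vertical axis, from 0) of 5 marker lists on each of the 7 arrays, by group; each point is 1 array. The sum of the ureteric mesenchyme list, to which its brightest genes add most, is highest in both stalk arrays although 2 of its 9 genes were higher and 2 lower than in mesenchyme. The sums of that list and of the stroma list are lowest among the tissues in the tip arrays.

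Other genes of the pathway were read from fixed lists of ligand processing, receptors, signal transduction, cilium transport and reported targets. Among the 16 reported targets measured that are not members, 1 was higher and 6 were lower in tip than in stalk. Of all genes, 2.33% were higher and 6.31% lower there. The median of the targets was -0.27 beside 0.07 over all genes. Bmp4, a growth factor gene induced by Sonic hedgehog in the ureteric mesenchyme, measured 10.17 and 9.97 in stalk, 9.15 and 8.92 in mesenchyme and 7.398 and 7.34 in tip. Its groups did not overlap, and tip minus stalk was -2.70 ± 0.15 (adjusted p = 5.64e-05). Foxl1, a forkhead gene of mesenchyme beside epithelium, had the same order (0.84 for stalk minus mesenchyme and -1.11 for tip minus stalk). Sfrp1, a secreted Wnt inhibitor gene, lay at 9.10 and 9.12 in stalk and was -1.73 for tip minus stalk, yet it was level between stalk and mesenchyme (0.04). Bcl2, Cntfr and Rab34 were lower in tip than in stalk too (-0.94, -1.10 and -0.68), whereas the growth regulator gene Mycn was higher (0.91). The Rab34 call was lost in the fit on 2 groups. In stalk against mesenchyme 3 of these targets were higher (Bmp4, Foxl1 and the cyclin gene Ccnd1) and 1 lower (Bcl2), where 3.74% and 0.962% of all genes were. Without stalk replicate 1, 0 passed in that comparison and 3 were lower in tip than in stalk. In tip against stalk Mycn, Cntfr and Rab34 were not called without either stalk array. In stalk against mesenchyme only Bmp4 passed without mesenchyme replicate 1 or stalk replicate 2, and only Foxl1 without mesenchyme replicate 2. In tip against mesenchyme 1 was higher (Ccnd1, 1.14) and 4 were lower, where 6.56% and 7.56% of all genes were. Foxf1, a forkhead target gene in foregut and ureteric mesenchyme, had differences of -0.08 and 0.18 against mesenchyme that were not called.

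**Figure D4:**
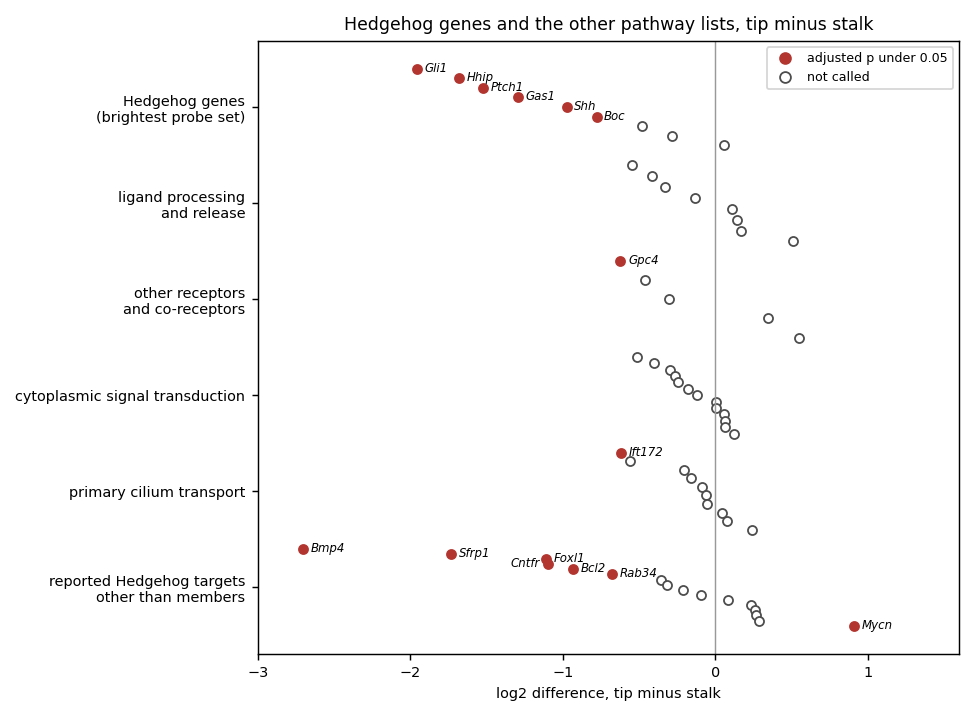
Log2 difference of tip minus stalk (horizontal axis) for the 9 Hedgehog genes and for the genes of 5 other pathway lists (vertical axis, each point a gene by its brightest probe set); filled and named points had an adjusted p under 0.05. Signal transduction and cilium genes lie between -0.62 and 0.24, whereas the reported targets range from -2.70 for Bmp4 to 0.91 for Mycn.

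Few calls fell among the signal-transducing genes, and the shares over all genes were small too. In stalk against mesenchyme 3.74% of all genes were higher and 0.962% lower. The shares were 6.56% and 7.56% in tip against mesenchyme, and 2.33% and 6.31% in tip against stalk. With lists of 13 and 10 genes, counts of 0 or 1 do not set them apart from all genes. Of 13 cytoplasmic transduction genes, 0 were called in any of the 3 comparisons by limma, while 0, 2 and 2 of them were lower at an unadjusted p under 0.05 (stalk versus mesenchyme, tip versus mesenchyme and tip versus stalk, in that order). Gsk3b (-0.46 and -0.52) was called lower in both tip comparisons with the replicate block, trend and robust variance, omission of the dimmest probe sets, 1 probe set per gene and log2 of the value plus 32. Spop was called lower in tip against mesenchyme with the first 2 of these, and in both tip comparisons without tip replicate 1. Sufu, the gene of the cytoplasmic Gli inhibitor, lay between 7.94 and 8.20 on all 6 tissue arrays. Kif7, a ciliary kinesin gene of the pathway, lay between 7.07 and 7.398. Of 10 cilium transport genes, Ift172 alone was called, lower in tip than in stalk (-0.62) and than in mesenchyme (-0.58). Both calls were lost in the fit on 2 groups and without any 1 of the 6 tissue arrays (adjusted p from 0.0535 to 0.273). Kif3a was called lower in both with the replicate block and without tip replicate 1, and in tip against mesenchyme also with trend and robust variance.

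Genes of ligand release and co-reception were split. Scube3, whose secreted product belongs to a family that helps release Hedgehog ligands, was higher than mesenchyme by 1.15 in stalk and 1.02 in tip. The stalk call was lost without mesenchyme replicate 2 or either stalk array (adjusted p from 0.0608 to 0.0692). Disp1, the gene of the ligand exporter Dispatched1, was lower in tip than in mesenchyme (-0.74, lost without either mesenchyme array at adjusted p = 0.0672 and 0.0694) and measured 7.13 and 7.14 in stalk, where Shh was highest. The remaining ligand genes were dim, with Ihh between 4.77 and 5.23 and Dhh between 4.43 and 5.23 on the tissue arrays, and neither was called without the block. In tip against mesenchyme the co-receptor gene Cdon ran opposite to the co-receptor genes Boc and Gas1. It measured 9.07 and 8.84 in tip, 8.43 and 8.38 in stalk and 8.08 and 8.09 in mesenchyme, with tip higher than mesenchyme by 0.87 ± 0.14 (adjusted p = 0.00484). Tip minus stalk was 0.55 for Cdon (adjusted p = 0.0623), and it was called under 6 alternatives, among them the replicate block (adjusted p = 0.0174). Lrp2, a large endocytic receptor gene that binds Sonic hedgehog, was 1.02 higher in tip than in mesenchyme, a call lost with log2 of the value plus 32 (adjusted p = 0.0780) and without either mesenchyme array or tip replicate 1 (adjusted p from 0.0713 to 0.135). Among the glypican genes, Gpc6 was lower in stalk (-0.62) and tip (-1.08) than in mesenchyme. The Gpc6 stalk call was lost after each array was centred on its median (adjusted p = 0.0821) and without any 1 array of the comparison (adjusted p from 0.241 to 0.417). Gpc4 was higher in stalk than in mesenchyme (0.65, adjusted p = 0.0493) and lower in tip than in stalk (-0.62, adjusted p = 0.0361). The first call was lost in the robust variance model (adjusted p = 0.0645) and without any 1 of its 4 arrays (adjusted p from 0.137 to 0.442), and the second in the fit on 2 groups (adjusted p = 0.0574) and without any 1 of the 6 arrays (adjusted p from 0.0574 to 0.305).

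In mIMCD-3 most members lay below the stalk, and Gli2 had the largest difference among the brightest probe sets. With 1 array there is no test, and a probe set was counted when mIMCD-3 lay at least 1 log2 unit from the mean of a tissue group and outside its 2 arrays. By that rule 14 of 24 member probe sets were lower in mIMCD-3 than in stalk, where 7.76% of all probe sets were. Against mesenchyme 7 were lower (7.55% of all) and against tip 4 were lower (6.34% of all). No member was higher against mesenchyme, stalk or tip, where 10.2%, 9.21% and 9.41% of all probe sets were. Gli2 measured 5.19 in mIMCD-3 against 8.95 to 9.37 on the tissue arrays, a difference of -3.81 from the tip mean and a 14.0-fold lower signal. Its other probe set measured 5.88 against 7.11 to 7.58. Shh at 5.32 lay below all 6 tissue arrays, with differences of -3.44 from the stalk mean and -2.47 from the tip mean, although the line had a high level of Cdh1. Gli1 at 5.33 and Hhip at 4.11 differed from the tip means by -0.39 and -0.18. Gli3 (8.41), Smo (9.45) and Ptch1 (8.78) stood at the 80.4, 89.5 and 83.9 percentiles of that array, and Gli2 at the 47.1 percentile. Boc at 5.64 differed from the tip mean by -1.08 and Gas1 at 10.09 by -0.29. Among other genes of the pathway, Sufu stood at 8.50, Cdon at 8.20 and Disp1 at 7.34, within or near their tissue range. Gpc3, a glypican gene, stood at 5.57 against 11.57 to 11.90 in the tissues.

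The genes whose levels ran most nearly in parallel were ranked by Pearson correlation over the 6 tissue arrays, among 1477 other genes that spanned at least 1 log2 unit and were brighter than the median gene. The arrays form 3 groups of 2, so a high value mainly says that the 3 group means have the same pattern. For Shh the highest were Glis2, a Gli-similar zinc finger gene (r = 0.996), Ypel2 (0.993), Rnase4 (0.990), Hebp1 (0.989) and Klf6 (0.987). For Ptch1 they were Apcdd1, a Wnt inhibitor gene (0.998), Nxpe3 (0.998), Car3, a carbonic anhydrase gene (0.997), Dach2 (0.991) and Thy1 (0.986). For Gli1 they were Plxna2, a semaphorin receptor gene (0.993), Syndig1 (0.993), Nxpe3 (0.976), Thy1 (0.974) and Plxnc1 (0.972). Nxpe3 and Thy1 were on the lists of both Ptch1 and Gli1. Car3 had the widest span among them, from 11.53 and 11.54 in stalk to 8.41 and 8.56 in mesenchyme and 7.57 and 8.07 in tip. Among the members themselves, r over the same arrays was 0.961 between Ptch1 and Gli1, 0.987 between Gli1 and Hhip, 0.919 between Boc and Gas1, and 0.556 between Shh and Gli1.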

How the data were processed

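Total RNA from 6 microdissected tissue samples and 1 culture of mIMCD-3 was converted to biotinylated cRNA for Affymetrix expression arrays of the mouse, per the labels' protocols. Values are intensities on a linear scale (5.08 to 19587) that the authors recalculated by RMA over all 7 arrays together, per the series' design text. The software is not given in the sources used here. RMA gives no detection calls and compresses the differences of dim probe sets.

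The intensities were converted to log2, and 64 control probe sets were left out. Of the rest, 34945 list 1 gene, 932 several and 9160 none. Of the probe sets with 1 gene, 99.4% have an Entrez identifier found in RefSeq's gene table (GRCm38.p6), used for names only. Probe sets were compared with limma 3.58.1 (R 4.3.3) in a single model of the 6 tissue arrays, with group means as coefficients, 3 residual degrees of freedom and two-sided tests, checked on simulated data. The mIMCD-3 array was kept out of the fit. No probe set was filtered.

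All 24 member probe sets are accounted for. A gene was represented by its brightest probe set (mean over 7 arrays). From each list, up to 4 called genes with the largest difference per comparison could be named, beside a fixed set of pathway and marker genes; Mycn, Rab34, Gpc3, Gsk3b, Spop and Kif3a fall outside that rule and were chosen after their values were seen. The lists held 139 genes, of which 132 were measured. The members and lists were chosen with earlier results of these data known.

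Differences between replicates 1 and 2 correlated across probe sets at 0.39 (mesenchyme and stalk), 0.57 (mesenchyme and tip) and 0.43 (stalk and tip), so the replicate number was treated as a possible pairing that no label mentions. The fit with that block has 2 residual degrees of freedom. Other alternatives were trend and robust variance, arrays centred on medians, omission of the dimmest 40% of probe sets, 1 probe set per gene, a fit on 2 groups only, log2 of the value plus 32, and omission of each tissue array. Leaving out an array of the group not compared leaves that group without a replicate, so it gives the same result as the fit on 2 groups. Plots were made in Python 3.11.15 (matplotlib 3.10.9).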

Additional observations from a re-analysis of the deposited data

Results flagged for a closer look

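For 6 of the 9 genes the effect against mesenchyme differed between stalk and tip, by the limma test of tip against stalk. The mesenchyme mean cancels in that difference, so these are the 6 calls of tip against stalk given above and no further result. The difference of the effects, tip minus stalk, was -1.96 for Gli1, where stalk lay 1.40 above mesenchyme and both tip arrays lay below both mesenchyme arrays. It was -1.53 for Ptch1, with 1.22 in stalk and -0.30 in tip, and -1.68 for Hhip, with 1.40 in stalk and -0.28 in tip. For Shh it was -0.97, with both effects above 0 (2.75 and 1.77). For Gas1 (-1.29) both effects were below 0. For Boc (-0.78) the tip effect was below 0, and the stalk effect was -0.22 with a 95% interval from -0.64 to 0.20. The Boc call of tip against stalk was lost with log2 of the value plus 32 and without any 1 stalk or tip array. In these 6 genes both tip arrays lay under both stalk arrays, but the genes were picked by that same test, so this adds no support. The effects share the mesenchyme arrays.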

How the results depend on the processing

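No difference of a member's brightest probe set that was called changed sign under any alternative. In each comparison, leaving out an array of the group not compared repeats the fit on 2 groups. The 13 alternatives are therefore not all distinct, and the tallies below count that fit more than once. Of 351 member results under alternatives, 331 kept their side of the threshold, 11 lost and 9 gained a call. In 2 of them, both not called, the sign changed: Gli2 in tip against mesenchyme was -0.02 without tip replicate 1, and Gli3 in stalk against mesenchyme -0.01 without stalk replicate 1. The calls of the brightest Ptch1, Gli1 and Hhip probe sets in stalk against mesenchyme and in tip against stalk were kept under all 13 alternatives. Member probe sets higher in tip than mesenchyme numbered 1, but 3 with the replicate block, 2 with trend and robust variance and 3 with log2 of the value plus 32. The replicate block changed no other count of member calls by over 1.5 times. With 1 probe set per gene, 1 member was lower in stalk than in mesenchyme (from 2 probe sets) and 6 were lower in tip than in stalk (from 10), since fewer probe sets were tested. Leaving out 1 array gave 0 to 2 member probe sets lower and 5 to 6 higher in stalk against mesenchyme, 3 to 5 lower and 1 higher in tip against mesenchyme, and 7 to 11 lower in tip against stalk. In mIMCD-3 against stalk, 9 members in place of 14 were lower with log2 of the value plus 32, which by construction shrinks dim values.

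Over all probe sets, 1128 were higher and 294 lower in stalk against mesenchyme, 2154 and 2487 in tip against mesenchyme, and 772 and 2054 in tip against stalk. With the replicate block these were 1932 and 776, 3480 and 3983, and 2421 and 3554. Trend and robust variance gave 501 lower in stalk against mesenchyme and 1374 higher in tip against stalk. With 1 probe set per gene, 1342 were higher and 1523 lower in tip against mesenchyme and 1268 lower in tip against stalk. Leaving out 1 array gave 557 to 1401 higher and 93 to 434 lower in stalk against mesenchyme, 1368 to 2446 and 1452 to 3224 in tip against mesenchyme, and 224 to 1117 and 1005 to 2905 in tip against stalk. The cause of these shifts was not tested, and leaving out an array lowers the residual degrees of freedom by construction. With 2 arrays a group the number of arrays limits the precision, and 6 of 24 member probe sets lay below the lower quartile of at least 1 array.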
